A study of Mus musculus with 2 samples.

Results

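Glycolysis splits glucose into pyruvate, and 34 genes of this path and of the entry of pyruvate into mitochondria were followed from the primed to the naive pluripotent state. They were taken from the 33963 genes of the table by their symbols, which name the glucose and lactate transporters, the enzymes of the path and their isozymes, lactate dehydrogenase, the subunits of pyruvate dehydrogenase and its kinases, and the enzymes that make or remove bisphosphate regulators. All 34 had reads. The rule names genes by symbol and sets no threshold on a measured value, but the set was drawn up with earlier results of these data known.

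Cells take up glucose through carriers of the Slc2a family, trap it by phosphorylation with hexokinase, split it into trioses with aldolase and draw ATP and NADH from the trioses in the payoff phase. Pyruvate is then either reduced to lactate by lactate dehydrogenase and exported through carriers of the Slc16a family, or oxidized by the pyruvate dehydrogenase complex, which pyruvate dehydrogenase kinases switch off. Primed pluripotent cells are known for a more glycolytic metabolism than naive cells, which use both glycolysis and mitochondrial respiration, and several genes of the path are known targets of the hypoxia-inducible transcription factors.

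A total of 5 populations of mouse cells were labelled with oligonucleotide tags, pooled and sequenced as 1 single-cell cDNA library, to follow the reversion of primed cells by activation of AMP-activated protein kinase (AMPK). Naive mESCs were a Rex1-GFP line, which carries GFP under the Rex1 promoter, kept in 2iL (LIF and inhibitors of MEK and of GSK3). Primed mEpiSCs were the Oct4GIP line, which carries GFP and a drug resistance gene under Oct4 regulatory sequence, kept in FGF2 and Activin A and plated on mouse embryonic fibroblast (MEF) feeders before reversion. Treatment of Oct4GIP cells with the AMPK activator AICAR plus LIF gave the populations d8, after 8 days, and d16, after 16 days. The population d16+10p came from d16 by a further 10 passages in 2iL without AICAR. The strain is given as 129/Ola for the whole pool, although Rex1-GFP and Oct4GIP are separate lines with their own genetic backgrounds, so line and state cannot be told apart between them. From primed to d8 and d16, serum-free medium with FGF2 and Activin A was replaced by a Basal medium with serum when AICAR and LIF were added. Medium, AICAR, LIF and time therefore cannot be told apart in those comparisons. Medium, feeders, AICAR and passage number also changed together between d16 and d16+10p and cannot be told apart. Each population was 1 sample, so no difference below has a replicate check, no test was made, and intervals cover counting error of reads only.

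The table held 307121033 reads in 17720 cells, and the tags gave 801 cells to naive, 1826 to primed, 9627 to d8, 4315 to d16 and 1151 to d16+10p, against 500, 500, 9000, 9000 and 1000 loaded. No cell barcode occurred in more than 1 column. The d16 cells were split at 1000 CPM (reads of a gene per 1000000 reads) of Dppa5a, a naive-state gene, into 1278 Dppa5a-high cells and 3037 other cells, and 72 d16 cells lay between 800 and 1250 CPM. Because tags also mark feeder and differentiated cells, each population was read a second time in its core, the cells in Pou5f1-high clusters. Of the d16+10p cells 81.6% were in the core, and the share was 70.3% for naive, 29.5% for d16, 26.0% for primed and 0.332% for d8 cells, so d8 has no core sum. A core follows the tag and is not a single cluster. Of the 474 primed core cells, 420 were in the mostly primed-tagged cluster 12 and 53 in the mostly d16-tagged cluster 5. The d16 core had 1189 cells in cluster 5 and 79 in cluster 7, mostly d16+10p-tagged. Whether such cells carried a wrong tag was not tested. The 7 naive markers summed to 3694 CPM in naive, 294 CPM in primed, 186 CPM in d8, 4942 CPM in d16 Dppa5a-high, 214 CPM in other d16 and 3948 CPM in d16+10p cells, and none of them was at 0 in any population. These markers include Dppa5a itself, so the contrast between the d16 groups was partly set by the split. The 8 fibroblast markers summed to 1742 CPM in primed-tagged cells and 466 CPM in the primed core, with none at 0.

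The summed level of the 34 genes was highest in the d16 cells that had regained the naive marker and lowest at d8. It was 8411 CPM (95% Poisson interval 8368 to 8454) in naive, 8954 CPM (8919 to 8989) in primed, 5710 CPM (5699 to 5721) in d8, 13740 CPM (13689 to 13790) in d16 Dppa5a-high, 11293 CPM (11258 to 11329) in other d16 and 8507 CPM (8472 to 8542) in d16+10p cells. This corresponded to between 0.571% and 1.37% of all reads. In the cores, it was 13805 CPM for d16, 11750 CPM for primed, 8779 CPM for naive and 8687 CPM for d16+10p. The primed sum therefore depended on the cells taken, being 1.06 times the naive sum over all tagged cells and 1.34 times over the cores. In a tagged population, fewer cells of a type and less RNA of a gene per cell cannot be told apart.

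**Figure D1:**
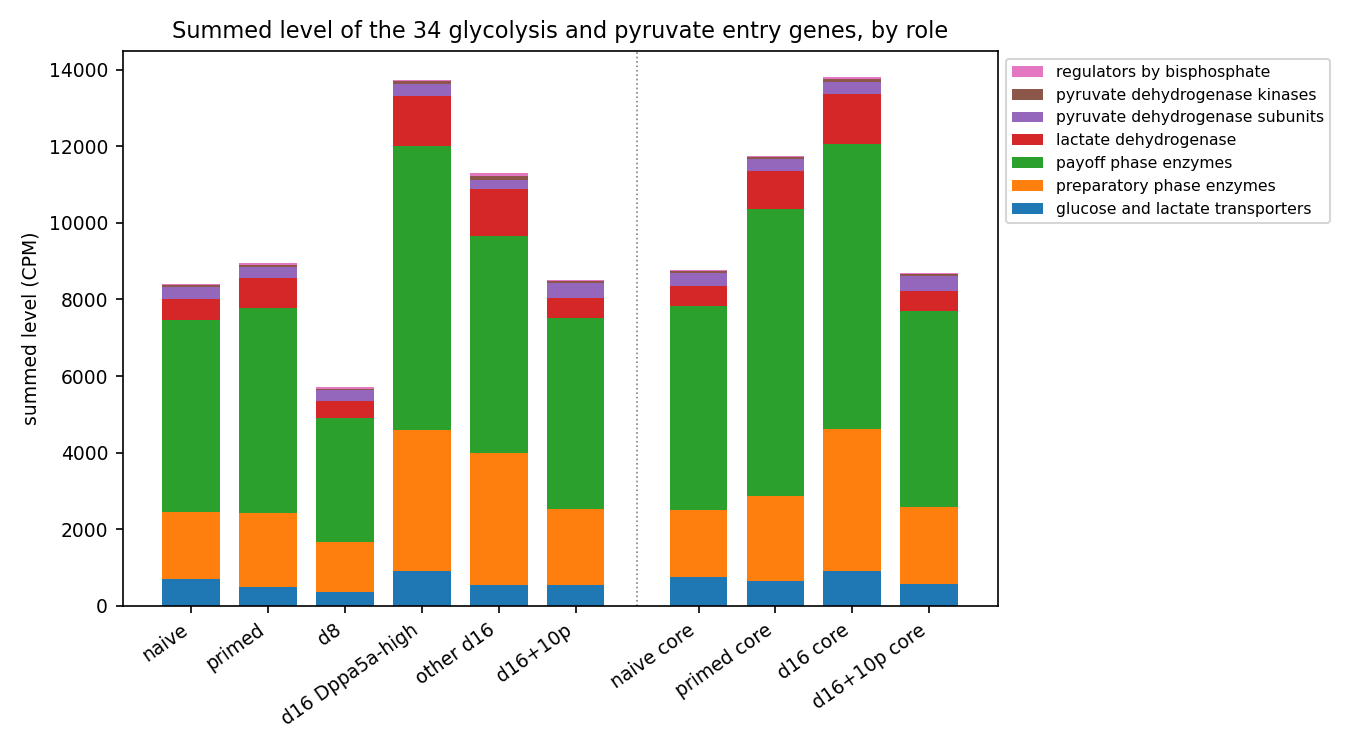
Stacked bars of the summed level (CPM, linear axis from 0) of the 34 genes by role, for the 6 groups of tagged cells on the left of the dotted line and the 4 cores on the right. The d16 Dppa5a-high bar reaches 13740 CPM and the d8 bar 5710 CPM, and most of each bar comes from the enzymes of the preparatory and payoff phases.

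Over d16 Dppa5a-high cells, the sum was 1.53 times that of primed-tagged cells and 1.17 times that of the primed core when the d16 core was used. After expansion in 2iL it was 0.619 times the d16 Dppa5a-high sum (log2 ratio -0.69, interval -0.70 to -0.68) and close to the naive sum (log2 ratio 0.02, 0.01 to 0.03). In the cores the d16+10p sum was 0.989 times the naive sum. The summed level of d16+10p cells thus stood close to that of naive cells, while single members did not, as given below.

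The sums were also read cell by cell. Per cell, the median summed level was 13841 CPM in d16 Dppa5a-high cells, with 10% of cells below 9819 CPM, and 8411 CPM in d16+10p cells, with 90% of cells below 10973 CPM. Naive cells had a median of 8406 CPM and d8 cells of 5328 CPM. Primed-tagged cells ranged most widely, from 3922 CPM at the 10th percentile to 14209 CPM at the 90th, and the primed core had a median of 11619 CPM.

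**Figure D2:**
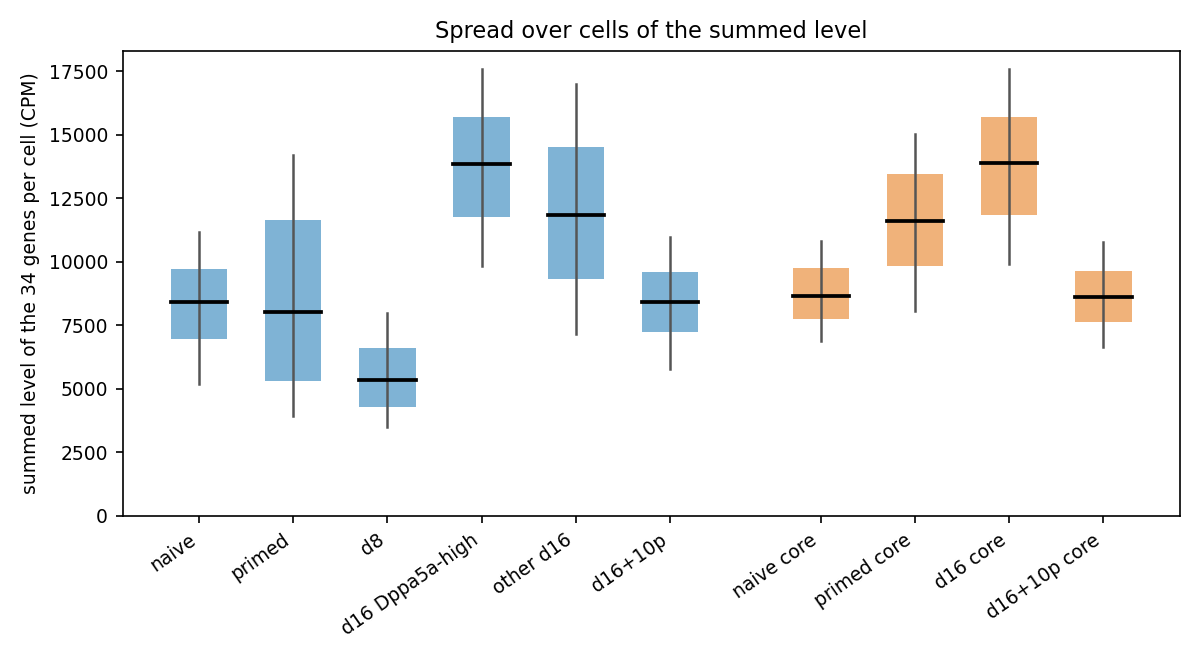
Spread over cells of the summed level of the 34 genes (CPM per cell, axis from 0). Boxes span the 25th to 75th percentile, black bars are medians and thin lines span the 10th to 90th percentile, in blue for tagged populations and in orange for cores. The box of d16 Dppa5a-high cells, with a median of 13841 CPM, lies above that of d16+10p cells, with a median of 8411 CPM.

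Single genes were then compared among the 7405 genes with a mean of at least 20 CPM over the 6 groups, and a gene was called at a ratio of at least 1.5-fold. Of the members, 24 passed this filter, and 10 did not: Adpgk, Pfkm, Eno2, Eno3, Pdk2, Pdk4, Pfkfb2, Pfkfb3, Pfkfb4 and Bpgm. Slc16a3 (mean 22.1 CPM), Aldoc (mean 25.1 CPM), Pdk1 (mean 31.5 CPM) and Hk1 (mean 22.5 CPM) passed only through d16 groups in which they were high. Their calls in comparisons with those groups, and the counts that include them, are thus partly set by the filter. The comparisons share groups (primed enters 3 of them, d16 Dppa5a-high 3 and naive 2), so they are not independent of each other.

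From naive to primed, members went both ways. Of the 24 members, 5 were higher in primed-tagged cells, against 12.2% of all genes tested, and 4 were lower, against 7.27%. In the cores, 9 were higher, against 9.82% of all genes, and 4 were lower, against 10%. The median log2 ratio of the 24 was 0.38 in the cores and 0.03 over all genes tested.

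At d8, members stood mostly below the primed level. None was higher by 1.5-fold than in primed-tagged cells, against 7.59% of all genes, and 12 were lower, against 10.6%. Set against the primed core, 1 was higher, against 23.1%, and 17 were lower, against 18.5%. Only 32 d8 cells lay in Pou5f1-high clusters, and the epithelial and macrophage markers of d8 cells summed to 2672 CPM over 7 genes and 3014 CPM over 8 genes, against 555 and 269 CPM in the primed core, with none at 0. The part of these cell types in the low d8 levels was not tested.

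In d16 Dppa5a-high cells, 13 of the 24 members were higher than in primed-tagged cells, against 10.1% of all genes, and none was lower, against 12.4%. The d16 core set against the primed core gave 8 higher, against 13.5%, and none lower, against 6.79%. The median of the 24 members was 0.62 on the log2 scale with tagged cells and 0.35 with cores, against -0.05 and 0.05 over all genes tested.

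Within d16, 5 members were higher in Dppa5a-high than in other d16 cells, against 22.4% of all genes, and 1 was lower, against 21%. The share of members higher was thus near that of all genes, and the share lower was below it.

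After expansion in 2iL, members stood mostly below the d16 level. Of the 24 members, 14 were lower in d16+10p than in d16 Dppa5a-high cells, against 3.36% of all genes, and none was higher, against 1.77%. Their median log2 ratio was -0.88, while that of all genes tested was -0.03. Set against naive cells, 1 member was higher in d16+10p, against 2.16%, and 2 were lower, against 1.3%. With cores 1 was higher, against 2.78%, and 5 were lower, against 1.86%.

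**Figure D3:**
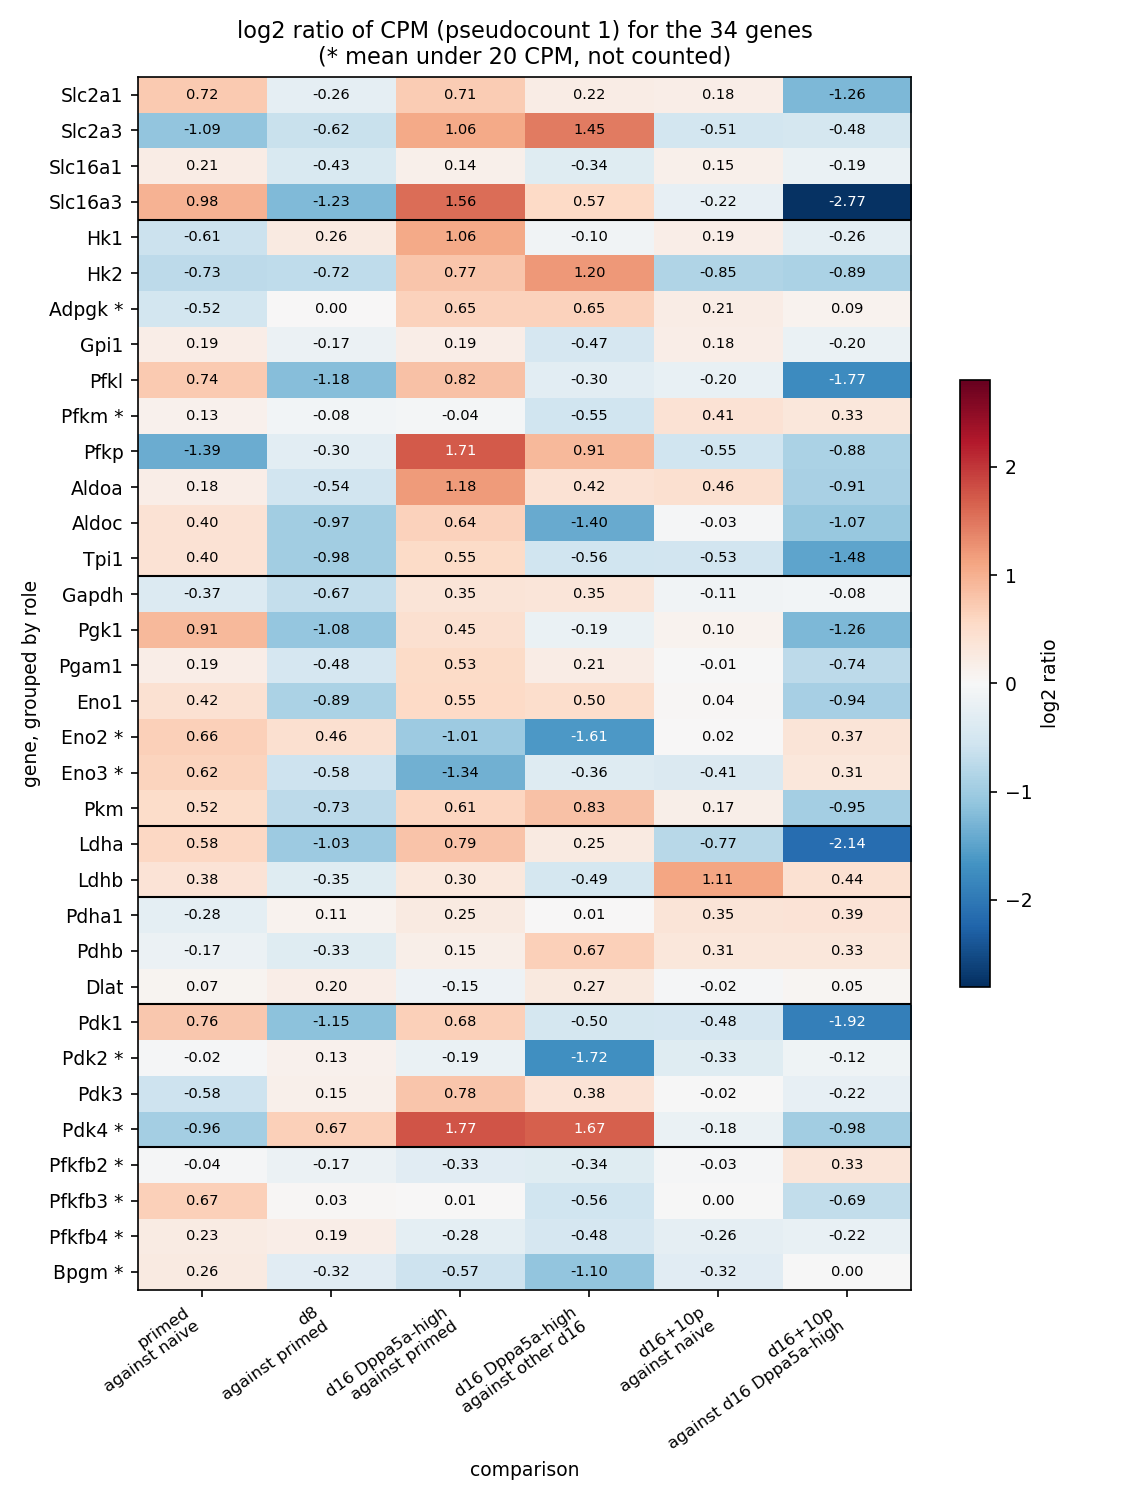
Heat map of the log2 ratio of CPM (pseudocount of 1 CPM) of each of the 34 genes, in rows grouped by role, for the 6 comparisons, in columns, with red for a higher level in the first group. In the last column, d16+10p against d16 Dppa5a-high, 14 of the 24 members that passed the filter were lower by 1.5-fold and none was higher. An asterisk marks the 10 genes under the filter.

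Among the glucose carriers, Slc2a3 was high in the naive-marked groups and Slc2a1 at d16. Slc2a3, the high-affinity glucose carrier GLUT3, was at 528 CPM in naive, 247 CPM in primed, 160 CPM in d8, 516 CPM in d16 Dppa5a-high, 188 CPM in other d16 and 369 CPM in d16+10p cells. Among tagged cells it was thus high in every naive-marked population. It was past 2-fold between primed and naive (log2 ratio -1.09, interval -1.14 to -1.05) and between d16 Dppa5a-high and other d16 cells (1.45). In the cores Slc2a3 was at 594 CPM in naive, 521 CPM in d16, 387 CPM in d16+10p and 336 CPM in primed cells. The primed and naive cores were thus less than 2-fold apart, and the primed core stood near the d16+10p core. Slc2a1, the broadly expressed glucose carrier GLUT1, was at 96.3 CPM in naive, 160 CPM in primed, 134 CPM in d8, 262 CPM in d16 Dppa5a-high, 225 CPM in other d16 and 109 CPM in d16+10p cells. It was higher at d16 than elsewhere, and lower in d16+10p than in d16 Dppa5a-high cells (log2 ratio -1.26). Of the reads of both carriers, Slc2a3 took 84.6% in naive and 77.2% in d16+10p cells, followed by 66.3% in d16 Dppa5a-high, 60.7% in primed, 54.5% in d8 and 45.5% in other d16 cells.

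Of the lactate carriers, Slc16a3 peaked at d16 while Slc16a1 was called in no comparison with d16+10p. Slc16a3, or MCT4, an exporter used by cells with high glycolytic flux, was at 8.58 CPM in naive, 17.9 CPM in primed, 7.05 CPM in d8, 54.9 CPM in d16 Dppa5a-high, 36.7 CPM in other d16 and 7.20 CPM in d16+10p cells. Its log2 ratio of d16+10p against d16 Dppa5a-high, the group through which it passed the filter, was -2.77 (interval -3.16 to -2.71, computed without the pseudocount). Slc16a1, or MCT1, a carrier that works in both directions, stayed between 48.9 CPM in d8 and 92.2 CPM in other d16 cells, with 56.9 CPM in naive, 66.05 CPM in primed, 72.7 CPM in d16 Dppa5a-high and 63.4 CPM in d16+10p cells. The Slc16a3 share of the reads of this pair was 13.1% in naive, 43.0% in d16 Dppa5a-high and 10.2% in d16+10p cells.

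In the preparatory phase, the read shares of the hexokinases and of the phosphofructokinases differed between populations. Hk2, the inducible hexokinase, was at 86.8 CPM in naive, 51.9 CPM in primed, 31.1 CPM in d8, 89.3 CPM in d16 Dppa5a-high, 38.2 CPM in other d16 and 47.6 CPM in d16+10p cells. It was therefore lower in the expanded cells than in naive cells (log2 ratio -0.85). Hk1, the constitutive hexokinase, was at 20.9 CPM in naive, 13.4 CPM in primed, 16.3 CPM in d8, 29.0 CPM in d16 Dppa5a-high, 31.3 CPM in other d16 and 24.0 CPM in d16+10p cells, and at 8.35 CPM in the primed core. The Hk1 log2 ratio of d16 Dppa5a-high, a group through which it passed the filter, against primed was 1.06. Of the hexokinase reads of these genes, Hk2 took 89.97% in the primed core (interval 87.8% to 91.9%), 81.9% in the naive core, 75.5% in the d16 core and 67.2% in the d16+10p core. With all tagged cells the order of primed and naive turned, at 79.5% in primed and 80.6% in naive cells, whose intervals overlapped. Adpgk, an ADP-dependent glucokinase, was between 14.5 and 24.8 CPM.

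Phosphofructokinase, which commits fructose phosphate to the path, has the platelet-type isozyme Pfkp, the liver-type Pfkl and the muscle-type Pfkm. Pfkp was at 86.3 CPM in naive, 32.3 CPM in primed, 26.0 CPM in d8, 108 CPM in d16 Dppa5a-high, 57.2 CPM in other d16 and 58.5 CPM in d16+10p cells, and its log2 ratio of d16 Dppa5a-high against primed was 1.71 (2.04 with cores). Pfkl was at 31.1 CPM in naive, 52.6 CPM in primed, 22.6 CPM in d8, 93.9 CPM in d16 Dppa5a-high, 116 CPM in other d16 and 26.9 CPM in d16+10p cells. Pfkm varied little in level, from 15.9 CPM in naive and 16.5 CPM in d8 over 16.9 CPM in d16 Dppa5a-high, 17.5 CPM in primed and 21.5 CPM in d16+10p to 25.3 CPM in other d16 cells. Pfkl was lower in d16+10p than in d16 Dppa5a-high cells, with a log2 ratio of -1.77. The naive and primed cores differed in how the family's reads were divided, with Pfkp at 68.6% of the family in the naive core and 23.5% in the primed core, and Pfkl at 20.8% and 59.9%. The d16 core had 49.6% Pfkp and 42.5% Pfkl, and the d16+10p core had 57.5% Pfkp and 23.0% Pfkl. By reads per kilobase of exon, which lowers the share of the long Pfkp, it held 40.6% in naive, 15.5% in primed, 29.7% in d16 Dppa5a-high and 29.4% in d16+10p cells.

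Downstream of that step, Aldoa, the aldolase of most tissues, was at 926 CPM in naive, 1053 CPM in primed, 723 CPM in d8, 2394 CPM in d16 Dppa5a-high, 1795 CPM in other d16 and 1273 CPM in d16+10p cells. It was the member that added most to the d16 sum relative to primed cells (log2 ratio 1.18). Aldoc, the brain-type aldolase, was at 12.7 CPM in naive, 17.0 CPM in primed, 8.21 CPM in d8, 27.1 CPM in d16 Dppa5a-high, 73.4 CPM in other d16 and 12.4 CPM in d16+10p cells, with a log2 ratio of -1.40 for Dppa5a-high against other d16 cells, the group through which it passed the filter. Tpi1, which interconverts the trioses, was at 281 CPM in naive, 372 CPM in primed, 188 CPM in d8, 544 CPM in d16 Dppa5a-high, 803 CPM in other d16 and 195 CPM in d16+10p cells. The expanded cells thus held the second-lowest Tpi1 level, with a log2 ratio of -1.48 against d16 Dppa5a-high cells. Gpi1, the isomerase between glucose and fructose phosphate, stayed between 269 and 486 CPM and was not called in any of the 6 comparisons.

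In the payoff phase, Gapdh and the other enzymes did not move as 1 block. Gapdh, often used as a reference gene, was at 2655 CPM in naive, 2048 CPM in primed, 1285 CPM in d8, 2613 CPM in d16 Dppa5a-high, 2052 CPM in other d16 and 2468 CPM in d16+10p cells. The d16+10p level was within 1.08-fold of the naive and 1.06-fold of the d16 Dppa5a-high level. In the cores Gapdh was at 2903 CPM in naive, 2867 CPM in primed, 2622 CPM in d16 and 2572 CPM in d16+10p cells, so the lower primed level was not seen there. Pgk1, which makes the first ATP of the phase, was at 304 CPM in naive, 571 CPM in primed, 270 CPM in d8, 781 CPM in d16 Dppa5a-high, 894 CPM in other d16 and 325 CPM in d16+10p cells. The primed core, at 802 CPM, and the d16 core, at 778 CPM, were alike in Pgk1 to a log2 ratio of -0.04 (interval -0.08 to -0.01), while the naive core had 290 CPM.

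Pkm, Eno1 and Pgam1 were lower in d16+10p than in d16 Dppa5a-high cells. Pkm, the pyruvate kinase gene of most tissues, was at 920.4 CPM in naive, 1317 CPM in primed, 794 CPM in d8, 2004 CPM in d16 Dppa5a-high, 1129.6 CPM in other d16 and 1037 CPM in d16+10p cells, and 2.02-fold higher in the primed than in the naive core. Between d16+10p and d16 Dppa5a-high cells the log2 ratio was -0.95 for Pkm, -0.94 for Eno1, the general enolase, and -0.74 for Pgam1, the phosphoglycerate mutase of most tissues. Eno1 shares reads with its near-copy Eno1b, which held 0.501 to 0.521 reads per Eno1 read in each of the 11 cell groups, so reads of the pair were split and the Eno1 level is uncertain. Eno2, the neuronal enolase, and Eno3, the muscle enolase, were under the filter, at 5.87 to 20.03 CPM and 5.92 to 16.5 CPM. Neither was lower after expansion, with Eno2 at 7.89 CPM in d16+10p against 5.87 CPM in d16 Dppa5a-high cells and Eno3 at 7.59 CPM against 5.92 CPM.

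Lactate dehydrogenase differed in isozyme between d16+10p cells and every other group. Ldha, the subunit that prevails in glycolytic tissue, was at 416 CPM (407 to 426) in naive, 624 CPM (615 to 634) in primed, 306 CPM (303 to 308) in d8, 1082 CPM (1068 to 1096) in d16 Dppa5a-high, 911 CPM (901 to 921) in other d16 and 244 CPM (238 to 250) in d16+10p cells. It was therefore lower in the expanded cells than in naive cells (log2 ratio -0.77), and lower than in d16 Dppa5a-high cells (-2.14, interval -2.19 to -2.11). Ldhb, the subunit that prevails in oxidative tissue such as heart, was at 135 CPM (130 to 141) in naive, 176 CPM (171 to 181) in primed, 138 CPM (136 to 140) in d8, 217 CPM (210 to 223) in d16 Dppa5a-high, 306 CPM (300 to 311) in other d16 and 294 CPM (287 to 300) in d16+10p cells. It was the only member called higher in d16+10p than in naive cells, with a log2 ratio of 1.11 (1.05 to 1.19) and of 1.33 in the cores.

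Of the Ldha and Ldhb reads, Ldhb took 54.6% (53.8% to 55.4%) in d16+10p cells, followed by 31.1% in d8, 25.1% in other d16, 24.5% (23.6% to 25.4%) in naive, 22.0% in primed and 16.7% (16.2% to 17.1%) in d16 Dppa5a-high cells. With cores, d16+10p had 57.4%, naive 22.1%, d16 16.7% and primed 10.5%. The shift was spread over cells. Among cells with at least 10 reads of the pair, Ldhb held most of the reads in 57.1% of 590 d16+10p cells, in 9.90% of 414 naive cells and in 2.95% of 982 d16 Dppa5a-high cells. The sum of both genes, however, was close between d16+10p and naive cells, at 538 CPM and 551 CPM. By reads per kilobase of exon, with all annotated exons of a gene as its length, Ldhb held 71.7% in d16+10p and 29.7% in d16 Dppa5a-high cells. Whether reads of this library scale with that length was not tested, so shares are compared across populations and not between the genes.

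**Figure D4:**
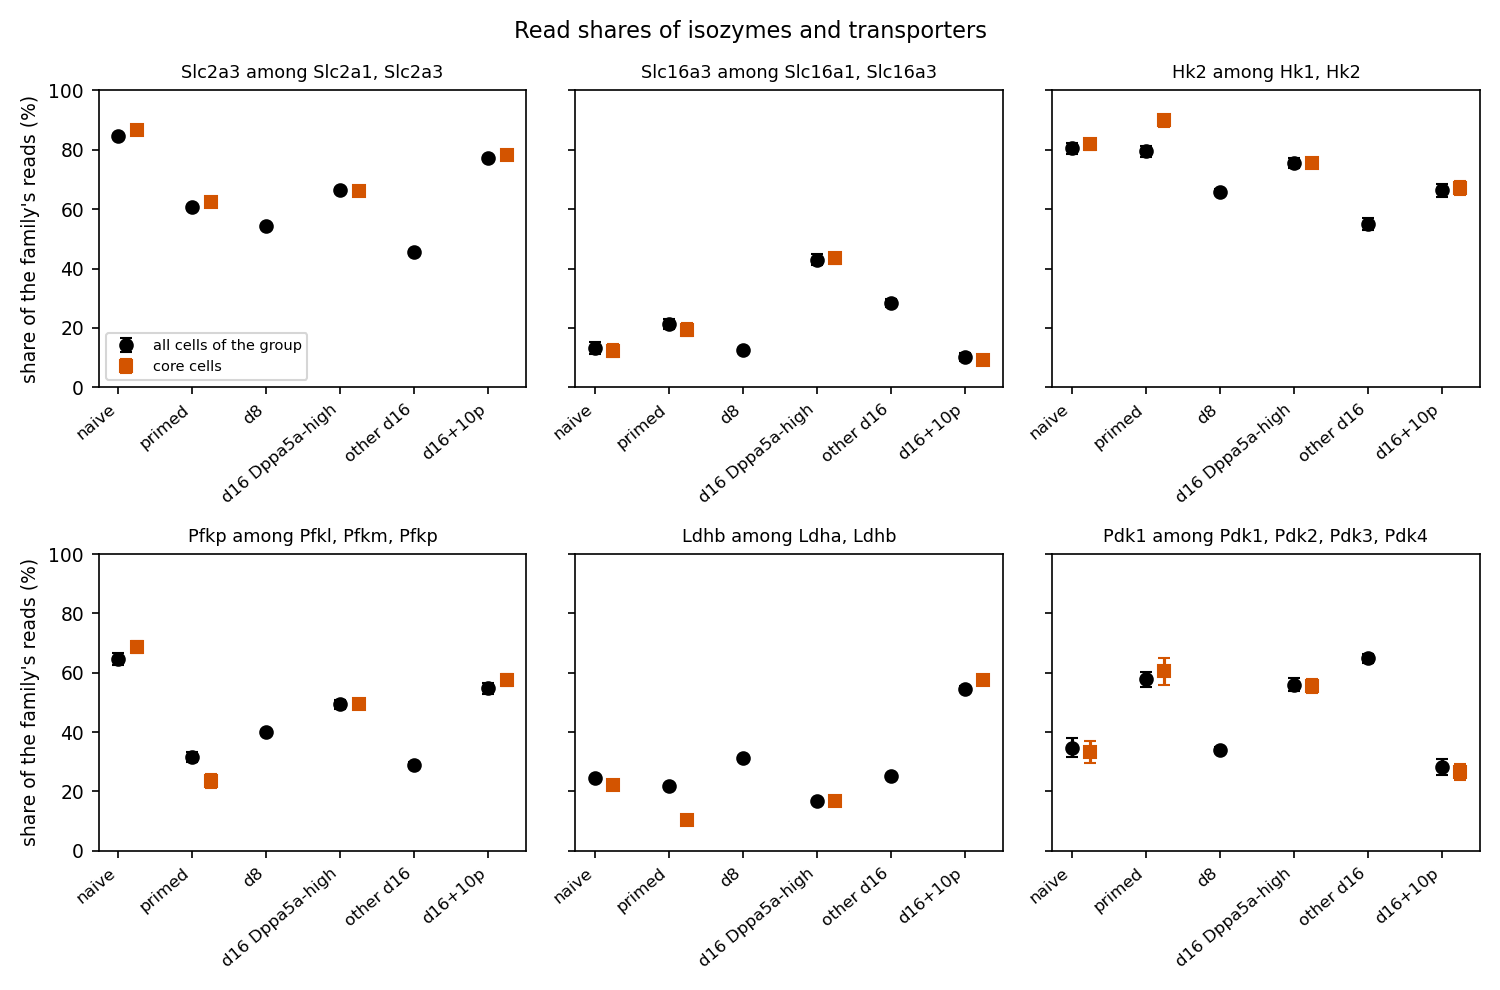
Share of a family's reads (%, axis from 0 to 100) held by 1 gene, named above each panel, in the 6 groups of tagged cells (black circles) and in the 4 cores (orange squares), with 95% exact binomial intervals. The Ldhb panel shows 54.6% in d16+10p cells against 16.7% to 31.1% in the other 5 groups, and the Slc16a3 panel shows a peak of 43.0% in d16 Dppa5a-high cells.

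Promoter sequence is shown for 4 genes that were lower after expansion (Ldha, Slc16a3, Pdk1 and Pgk1) and for Ldhb, which was not, a choice made after their values were seen. The 250 bases before the RefSeq start (GRCm38.p6) nearest to the annotated gene start are printed 5' to 3' on the gene's strand, with ACGTG, the core of the hypoxia response element, in capitals on either strand (CACGT on the other). A CACGTG holds a match on each strand and was counted as 2.
Ldha, chr7:46845554-46845803, plus strand: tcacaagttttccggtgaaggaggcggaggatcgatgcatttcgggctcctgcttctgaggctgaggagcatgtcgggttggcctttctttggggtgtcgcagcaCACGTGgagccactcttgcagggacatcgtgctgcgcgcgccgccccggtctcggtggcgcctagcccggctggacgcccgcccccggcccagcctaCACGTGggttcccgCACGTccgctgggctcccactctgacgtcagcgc
Pgk1, chrX:106186850-106187099, plus strand: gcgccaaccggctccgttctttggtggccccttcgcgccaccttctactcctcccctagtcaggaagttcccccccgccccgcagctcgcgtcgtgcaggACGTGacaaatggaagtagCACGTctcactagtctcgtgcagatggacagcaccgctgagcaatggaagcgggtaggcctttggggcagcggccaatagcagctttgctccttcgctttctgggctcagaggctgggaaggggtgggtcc
Slc16a3, chr11:120948817-120949066, plus strand: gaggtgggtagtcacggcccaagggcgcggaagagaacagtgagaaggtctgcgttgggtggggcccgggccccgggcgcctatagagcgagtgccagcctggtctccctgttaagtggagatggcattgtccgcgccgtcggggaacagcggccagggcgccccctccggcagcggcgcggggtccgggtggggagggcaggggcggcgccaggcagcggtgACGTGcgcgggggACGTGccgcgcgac
Pdk1, chr2:71872974-71873223, plus strand: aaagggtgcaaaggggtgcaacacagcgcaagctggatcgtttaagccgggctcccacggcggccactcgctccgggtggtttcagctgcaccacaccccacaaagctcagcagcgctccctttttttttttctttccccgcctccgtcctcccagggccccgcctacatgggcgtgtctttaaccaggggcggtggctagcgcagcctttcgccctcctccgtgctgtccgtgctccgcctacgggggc
Ldhb, chr6:142507958-142508207, minus strand: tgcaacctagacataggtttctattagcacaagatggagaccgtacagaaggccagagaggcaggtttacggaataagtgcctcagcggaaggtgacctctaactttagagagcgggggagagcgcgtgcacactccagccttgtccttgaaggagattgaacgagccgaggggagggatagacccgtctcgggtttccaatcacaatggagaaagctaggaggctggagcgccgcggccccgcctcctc
Ldha had 5 matches, Pgk1 2 and Slc16a3 2, while Pdk1 and Ldhb had none in these windows. Pfkl and Tpi1, whose log2 ratios of -1.77 and -1.48 after expansion were larger in size than that of Pgk1 (-1.26), also had none. A window was found for 33 of the 34 genes, all but Slc2a3, and 13 of them (39.4%) held at least 1 match. Counted over all 49 windows of the members, 20 (40.8%) did, against 16.6% of 32817 promoter windows of all genes. That background includes genes without regard to their level or base content, and a matched one was not made. A match is a description of letters, and binding was not measured.

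The annotation places Ldha at chr7:46841475-46855627 and Slc16a3 at chr11:120948480-120960868 on the plus strand, Pgk1 at chrX:106187100-106203699 and Pdk1 at chr2:71873224-71903858 on the plus strand, and Ldhb at chr6:142490249-142507957 on the minus strand (GENCODE M21, GRCm38).

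At the entry into mitochondria, the summed levels of the enzyme subunits and of the kinases that switch them off went different ways after expansion. The 3 subunits, Pdha1 and Pdhb of the decarboxylase and Dlat, the acetyltransferase, summed to 323 CPM in naive, 290 CPM in primed, 279 CPM in d8, 316 CPM in d16 Dppa5a-high, 250 CPM in other d16 and 390 CPM in d16+10p cells. Over the 6 comparisons only Pdhb was called, at 148 CPM in d16 Dppa5a-high against 92.7 CPM in other d16 cells (log2 ratio 0.67). Of the 7 roles they were the only one with a higher sum in d16+10p than in d16 Dppa5a-high cells (log2 ratio 0.30), while all 4 kinases together were at 0.495 times the d16 Dppa5a-high level. None of the 3 subunits was called in that comparison, and Dlat was at 60.1 CPM against 58.0 CPM. Most of the kinase difference lay in Pdk1, which passed the filter through d16 groups, while Pdk3 was at 26.1 CPM against 30.6 CPM.

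Pdk1, a kinase that closes this gate under hypoxia, was at 17.2 CPM (15.3 to 19.2) in naive, 29.9 CPM (27.9 to 32.0) in primed, 12.9 CPM (12.4 to 13.5) in d8, 48.3 CPM (45.4 to 51.4) in d16 Dppa5a-high, 68.7 CPM (66.0 to 71.5) in other d16 and 12.1 CPM (10.7 to 13.5) in d16+10p cells. The Pdk1 log2 ratio of d16+10p against d16 Dppa5a-high, a group through which it passed the filter, was -1.92. Pdk3, another kinase of the complex, was at 26.4 CPM in naive, 17.3 CPM in primed, 19.3 CPM in d8, 30.6 CPM in d16 Dppa5a-high, 23.2 CPM in other d16 and 26.1 CPM in d16+10p cells. The Pdk1 share of the kinase reads was 57.8% in primed, 56.03% in d16 Dppa5a-high and 64.9% in other d16 cells, against 34.7% in naive, 34.02% in d8 and 28.2% in d16+10p cells. By reads per kilobase of exon, Pdk1 held 39.6% in other d16, 32.0% in primed and 30.5% in d16 Dppa5a-high cells. On that scale it held 15.4% in naive, 15.1% in d8 and 11.8% in d16+10p cells. Whether Pdk1 held most of the family thus depended on the scaling by length, and whether reads of this library scale with length was not tested. Pdk2, a broadly expressed kinase, was at 4.06 CPM in naive, 3.98 CPM in primed, 4.43 CPM in d8, 3.37 CPM in d16 Dppa5a-high, 13.4 CPM in other d16 and 3.01 CPM in d16+10p cells. Pdk4, a kinase induced by fasting, was at 1.86 CPM in naive, 0.466 CPM in primed, 1.34 CPM in d8, 3.995 CPM in d16 Dppa5a-high, 0.571 CPM in other d16 and 1.52 CPM in d16+10p cells.

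The regulators by bisphosphate were all under the filter. Pfkfb3, which makes the activator fructose 2,6-bisphosphate, was at 10.0 CPM in naive, 16.6 CPM in primed, 17.0 CPM in d8, 16.8 CPM in d16 Dppa5a-high, 25.2 CPM in other d16 and 10.0 CPM in d16+10p cells. It held 57.3% of the Pfkfb reads in naive and 74.4% in other d16 cells. Its relative Pfkfb2 lay between 3.51 and 4.81 CPM, Pfkfb4 between 2.06 and 3.94 CPM, and Bpgm, which makes 2,3-bisphosphoglycerate, between 13.1 and 29.4 CPM. After each cell was thinned to 5000 reads, a Pfkfb3 read was found in 4.91% of 733 naive cells (interval 3.46% to 6.73%), in 9.62% of 2473 other d16 cells (8.49% to 10.9%) and in 14.5% of 832 macrophage-like cells (12.2% to 17.1%). Before thinning, these shares were 14.2%, 17.4% and 30.6%. For Eno2, a neuronal gene, the thinned share was 24.3% of 148 neural-like cells, with 122 shallower ones left out, and 5.17% of 832 macrophage-like cells. The 3.96% in naive and 2.42% in d16 Dppa5a-high cells were below both and may be background, but a background rate was not measured. Cells under 5000 reads were left out, from 40 of the d16 Dppa5a-high to 755 of the d8 cells. Median depth was 19551 reads in naive, 14255 reads in d16 Dppa5a-high, 17395 reads in macrophage-like and 5369 reads in neural-like cells.

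The 15 clusters of at least 100 cells, made without the 34 genes, showed where the sum was carried. It was 13635 CPM in cluster 5, the Pou5f1-high cluster in which 90.1% of the cells carried the d16 tag, and 12379 and 12026 CPM in clusters 6 and 3, both mostly d16-tagged (led by Col3a1 and by Fabp7 and Slc1a3). Pou5f1-high cluster 12, 97.7% primed-tagged, had 11616 CPM, cluster 7 of mostly d16+10p cells 8994 CPM and cluster 11 of mostly naive cells 8780 CPM. The 8 clusters with a d8 majority were the lowest, from 4170 CPM in cluster 14, led by Krt15, to 6662 CPM in cluster 0, led by Lox.

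**Figure D5:**
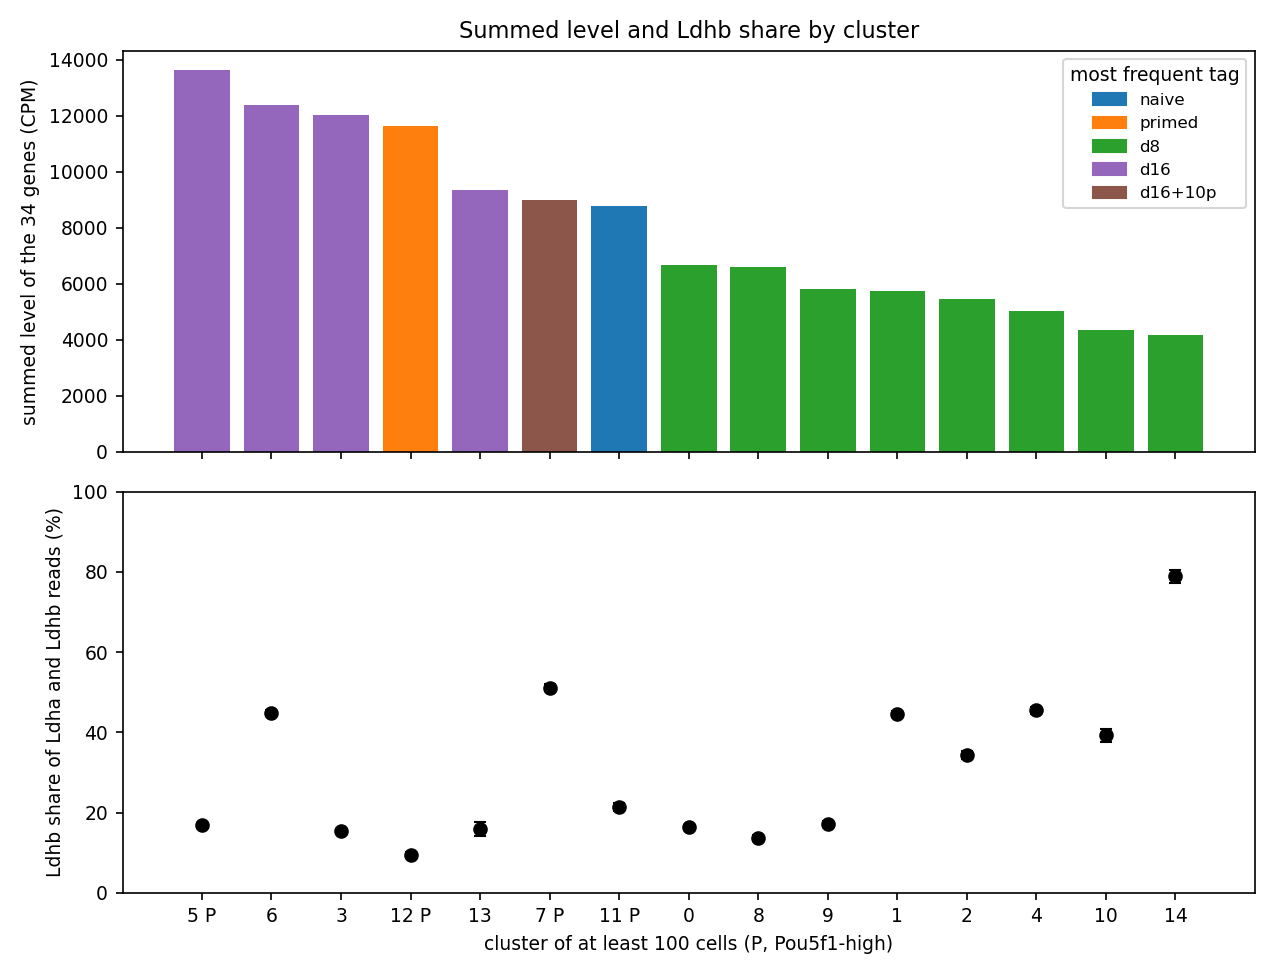
Upper panel, summed level of the 34 genes (CPM, axis from 0) in the 15 clusters of at least 100 cells, in descending order and coloured by the most frequent tag. Lower panel, Ldhb share of the Ldha and Ldhb reads (%) with 95% exact binomial intervals. Clusters with a d8 majority sit between 4170 and 6662 CPM, and the Ldhb share runs from 9.55% in cluster 12 to 78.9% in cluster 14.

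The d8-tagged and d16-tagged cells were also set side by side within clusters. Where a cluster held at least 50 d8-tagged and 50 d16-tagged cells, the d16-tagged cells had the higher sum in 6 of 6 clusters, by 1.23 to 1.65 times. Tpi1 was higher by 1.39 to 3.22 times, Ldha by 1.32 to 2.09 times and Pgk1 by 1.19 to 2.72 times, each in 6 of 6 clusters. Primed-tagged cells also had a higher sum than d8-tagged cells in each of these clusters, with 7108 against 6557 CPM in cluster 0 and 6916 against 5392 CPM in cluster 9. The higher sum was thus not particular to d16-tagged cells. Outside cluster 6, the d16-tagged cells numbered only from 52 in cluster 4 to 80 in cluster 2. These clusters come from 1 library and are not replicates.

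Some members marked single clusters. Ldhb was highest in cluster 6, at 760 CPM, and next in cluster 14, at 595 CPM, where it held 78.9% of the pair's reads. Aldoc was highest in cluster 3, at 91.5 CPM, against 5.41 CPM in cluster 14. Pfkp at 135 CPM, Pfkm at 49.5 CPM, Eno2 at 72.7 CPM and Pfkfb3 at 52.2 CPM were highest in cluster 13, led by Chgb, Dcx and Tubb3. Slc2a3 reached 597 CPM in the naive cluster 11 and 481 CPM in cluster 9, a cluster led by Lhx1 and Cer1 with a d8 majority, against 71.8 CPM in cluster 0. Bpgm was highest in cluster 6, at 58.5 CPM, and Pfkfb4 in cluster 10, led by T and Shh, at 17.9 CPM.

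Other genes around the path were taken from lists. Of 16 genes of the citrate cycle, all past the filter, none was called between d16+10p and d16 Dppa5a-high cells. Over all genes, 3.36% were lower and 1.77% higher there, so no call among 16 genes is near those shares. The cycle summed to 1820 CPM in d16+10p and 1845 CPM in d16 Dppa5a-high cells. Of 6 tested genes of the pentose phosphate branch, 1 was higher in d16+10p cells, against 1.77% of all genes, and none was lower, against 3.36%. The higher gene was Pgd, which makes NADPH, at 202 CPM against 110 CPM. Of 10 tested hypoxia-factor targets outside the path, a list chosen with earlier results of these data known, 9 were lower in d16+10p than in d16 Dppa5a-high cells, against 3.36% of all genes, and none was higher, against 1.77%. Bnip3, a mitophagy receptor, was at 44.0 CPM against 177 CPM (log2 ratio -1.98), and Ndrg1, a stress-responsive gene, at 22.7 CPM against 48.6 CPM.

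Within d16, 5 of the same 10 genes were lower in Dppa5a-high than in other d16 cells, against 21% of all genes, and none was higher, against 22.4%. Vegfa, a growth factor of vessels, was at 56.2 CPM against 161 CPM, P4ha2, a collagen hydroxylase, at 24.4 CPM against 85.4 CPM and Egln3, an oxygen-sensing hydroxylase, at 26.3 CPM against 73.3 CPM. Markers of other cells also differed there, with 8 fibroblast markers at 546 CPM in Dppa5a-high and 3574 CPM in other d16 cells, none at 0, and their part was not tested. From naive to primed-tagged cells 5 of the 10 were higher, against 12.2% of all genes, and none was lower, against 7.27%. With cores 4 were higher, against 9.82%, and none was lower, against 10%. At d8, 3 were lower than in primed-tagged cells, against 10.6%, and none was higher, against 7.59%. Against the primed core, however, 4 were lower at d8, against 18.5% of all genes, and 3 were higher, against 23.1%. The median log2 ratio was 0.03 in place of -0.47. In d16 Dppa5a-high cells 3 were higher than in primed-tagged cells, against 10.1%, and none was lower, against 12.4%. In the d16 core 7 were higher than in the primed core, against 13.5%, and none was lower, against 6.79%.

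Of the 29 neighbours of the path in the table, 8 were tested. Tigar, a phosphatase that lowers fructose 2,6-bisphosphate, was at 50.6 CPM in naive, 12.2 CPM in primed, 10.8 CPM in d8, 28.6 CPM in d16 Dppa5a-high, 6.39 CPM in other d16 and 42.5 CPM in d16+10p cells. Tigar passed the filter only through the naive-marked groups in which it was high, so its contrast with the other groups is partly set by the filter. Pdp2, a phosphatase that reopens pyruvate dehydrogenase, was at 73.8 CPM in naive, 15.1 CPM in primed, 10.6 CPM in d8, 32.8 CPM in d16 Dppa5a-high, 13.6 CPM in other d16 and 29.4 CPM in d16+10p cells. It was the only one of the 8 called between d16+10p and naive cells (log2 ratio -1.30). Pdp2 too passed the filter only through naive-marked groups, so its calls in comparisons with them are partly set by the filter. Pgp, a phosphatase of phosphoglycolate, was past 2-fold only between Dppa5a-high and other d16 cells, at 72.9 CPM against 35.2 CPM.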

How the data were processed

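Single-cell cDNA of 5 tagged populations was analyzed from the deposited table of raw counts, which are whole read numbers for each symbol in each cell. The authors, by their methods and the submitters' processing notes, trimmed reads with cutadapt 2.10, mapped them with Bowtie2 2.3.4.1 to Ensembl cDNA and ncRNA of GRCm38.p6, counted reads per symbol without collapsing molecules, and removed barcodes below the knee plot and cells with ambiguous tags as doublets. No further cells were removed here, and no doublet caller was run. The tag library was not analysed here.

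Counts were summed per group and scaled here to CPM, reads per 1000000 reads of the group, in Python 3.11.15 with numpy 2.4.6 and scipy 1.17.1. Total reads ranged from 17245249 to 179944974 per group, and the median per cell from 8691 to 21551 reads in the 6 groups. Log2 ratios used a pseudocount of 1 CPM, and intervals (95%, exact Poisson or exact binomial) did not. Reads amplified from 1 molecule are not independent, so intervals and the limit of 3 counts for a gene without reads cover counting error only. Genes were called at 1.5-fold, with a mean of at least 20 CPM over the 6 groups. Members at least 2-fold apart in a comparison, or in a family whose read share moved by at least 10 percentage points, were described singly, and listed pathway genes past 2-fold were named, at most 4 a list and comparison. The members and lists were chosen with earlier results of these data known.

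Clusters came from Seurat 5.3.0 (R 4.3.3) at the settings of the study (2000 variable genes, 56 components, 50 neighbours, resolution 0.8), leaving out the members and lists, which left 1993 variable genes and gave 18 clusters. A Pou5f1-high cluster had at least 25% of the highest Pou5f1 level and a read in at least 75% of its cells. Clusters were named from marker lists. Ratios and intervals were tested on simulated counts with 200 changed genes. Alternatives included core cells, edgeR 4.0.16 TMM factors, other cuts of Dppa5a and other filters.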

Additional observations from a re-analysis of the deposited data

How the results depend on the processing

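Differences between populations have no replicate check, reads are not molecules, and tags mark mixed cells. The log2 ratio of the summed level is given in the order primed against naive, d8 against primed, d16 Dppa5a-high against primed, d16 Dppa5a-high against other d16, d16+10p against naive and d16+10p against d16 Dppa5a-high, and was 0.09, -0.65, 0.62, 0.28, 0.02 and -0.69 as reported. With core cells it was 0.42, -1.04, 0.23, 0.29, -0.015 and -0.67. Here all d8-tagged cells were set against the primed core, as d8 has no core sum, and other d16 stood for the d16 cells outside the core. The cores thus moved primed against naive up, moved d16 against primed down and turned the sign of d16+10p against naive, where the core sums stood at a ratio of 0.989. The mean over cells gave 0.047, -0.63, 0.66 and 0.20 for the first 4 comparisons, and TMM factors gave 0.041 for primed against naive, -0.55 for d8 against primed, 0.049 for d16+10p against naive and -0.61 for d16+10p against d16 Dppa5a-high. TMM shifted the median of all genes by 0.10 in d8 against primed and by less in the other comparisons. Without Gapdh the values were 0.26, -0.64, 0.69, 0.27, 0.069 and -0.88, and with near-copies added d8 against primed was -0.66 and d16 Dppa5a-high against other d16 was 0.29. Limiting cells to those between 2000 and 8000 detected genes gave -0.66 for d8 against primed, 0.63 for d16 Dppa5a-high against primed and 0.29 for d16 Dppa5a-high against other d16. Without mitochondrial genes in the total, d16 Dppa5a-high against other d16 was 0.27 and the last -0.70. A Dppa5a limit of 500 CPM gave 0.61, 0.27 and -0.68 for the 3 comparisons with d16 Dppa5a-high cells, and 2000 CPM gave 0.65, 0.305 and -0.72. A pseudocount of 10 CPM left the 6 values within their intervals. The number of members past 1.5-fold was 9, 12, 13, 6, 3 and 14, and at 2-fold it was 2, 5, 5, 3, 1 and 8. With core cells it was 8 for d16 against primed and 6 for d16+10p against naive, and without a filter 11 for d16 Dppa5a-high against other d16. With TMM factors each count was within 1.5 times the reported one. Of 23 isozymes, 15 had a read share that moved by 10 percentage points or more, against 9 with the mean of the share per cell, which needs 20 cells with 10 reads of the family. The order of the lowest and highest Ldhb share was the same by reads, per cell and per kilobase, while with cores the lowest was in primed cells. With cores the Hk2 share was highest in primed in place of naive cells and the Pfkp share lowest in primed in place of other d16 cells. No paired analysis was possible because the populations have no replicates.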
